A study of Mus musculus with 2 samples.

Results

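The nuclear lamina and its binding proteins were examined in nuclei of mouse skeletal muscle from which the envelope protein Net39 (gene symbol Plpp7) had or had not been deleted. The 10 genes were taken by symbol from the 27998 genes of the deposited matrix, all 10 were found, and the rule used no measured value. They are the lamins Lmna, Lmnb1 and Lmnb2, the LEM-domain proteins Emd, Lemd2, Lemd3, Tmpo and Ankle2, the lamin B receptor Lbr, and Banf1, the DNA-binding partner of the LEM domain.

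Single-nucleus RNA-seq (snRNA-seq) had been run on the gastrocnemius and plantaris (GP) muscle of 5-month-old male B6C3F1 mice, 3 months after tamoxifen in both groups. The control group (Ctrl) was Net39 fl/fl without Cre, and the conditional knockout (cKO) was HSACreERT2;Net39 fl/fl, in which the human skeletal actin promoter drives an inducible Cre in skeletal muscle fibres but not in satellite cells. Each group was 1 library, made from 3 muscles pooled before the nuclei were isolated, so the muscles could not be told apart and the spread between animals was not measured. The sample titles name a single mouse per group, so whether the 3 muscles of a pool came from several animals is in doubt. For that reason no test was run. Every interval is a 95% interval of counting error alone, and levels are unique molecular identifiers (UMIs) summed over the nuclei of a class and given per 1000000 UMIs of that class (CPM). A 3′ assay counts each RNA once, so levels of different genes were not corrected for length.

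The libraries held 3863 (Ctrl) and 3994 (cKO) barcodes with 10410316 and 8446070 UMIs, and 5 barcodes occurred in both. After filtering, 3526 and 3595 nuclei were used, with medians of 2039.5 and 1612 UMIs. Malat1, a nuclear RNA, took 25.5% of the UMIs in Ctrl and 30.7% in cKO. Clustering and markers placed 2981 and 3299 nuclei inside the fibres (myonuclei) and 545 and 296 outside them, and the class of a myonucleus was the adult myosin gene that held at least 60% of at least 3 myosin UMIs. Plpp7 itself was at 51.8 CPM in Ctrl and 41.0 in cKO myonuclei. The floxed segment is the first exon, which 3′ counts need not read, and what the Plpp7 level says of the labels was not tested. The log2 ratio of Plpp7, cKO over Ctrl, was 0.14 in nuclei with Myh4 as main myosin. Clusters 6 and 4, described further on, gave −2.65 (−4.15 to −1.32, from 18 and 7 UMIs) and −1.89 (−3.24 to −0.38, from 7 and 17 UMIs). Nuclei outside the fibres gave 0.87 (−0.22 to 1.92, from 19 and 15 UMIs). These last 3 ratios rest on under 50 UMIs, the fewest for a ratio here.

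The lamina is a meshwork of lamin filaments beneath the inner nuclear membrane. Lmna encodes lamins A and C by alternative splicing and is known for rising with tissue stiffness and for its mutations in Emery-Dreifuss muscular dystrophy, whereas Lmnb1 and Lmnb2 encode the B-type lamins that stay anchored to the membrane. LEM-domain proteins bind lamins and, through Banf1, chromatin. The lamin B receptor tethers heterochromatin in many cell types, and LBR and A-type lamins are known to take turns in that role during differentiation.

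The ends of the coding sequences set the lamin products apart. Prelamin A and lamin B2 end in a farnesylation box that begins with a cysteine codon, and lamin C ends upstream of it and lacks one. The last coding bases of the 3 transcripts are shown because the counts below add both Lmna products into 1 value. Each is written 5′ to 3′ on the coding strand, from GENCODE transcripts of GRCm38, with the last 4 codons before the stop codon in capitals.
Lmna, lamin A (Lmna-201): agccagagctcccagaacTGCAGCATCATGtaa
Lmna, lamin C (Lmna-203): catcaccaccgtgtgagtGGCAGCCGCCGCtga
Lmnb2 (Lmnb2-201): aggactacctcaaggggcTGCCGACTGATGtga
In the first and the third, the capitals open with TGC, a cysteine codon, and in the lamin C transcript they open with GGC. The Lmna-201 coding sequence is 1998 bases long and that of Lmna-203 is 1725 bases. A deposited count per gene cannot separate them, so every Lmna value below is for lamins A and C together.

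Lmna and Tmpo were the members that differed most clearly between the libraries, in opposite directions, so the 250 bases before one annotated start of each are shown, from RefSeq on GRCm38.p6. Capitals mark GGGCGG (an Sp1-type GC box) and CCAAT on either strand. The Lmna window is chr3:88503353-88503602 on the minus strand and the Tmpo window is chr10:91171620-91171869 on the minus strand.
Lmna: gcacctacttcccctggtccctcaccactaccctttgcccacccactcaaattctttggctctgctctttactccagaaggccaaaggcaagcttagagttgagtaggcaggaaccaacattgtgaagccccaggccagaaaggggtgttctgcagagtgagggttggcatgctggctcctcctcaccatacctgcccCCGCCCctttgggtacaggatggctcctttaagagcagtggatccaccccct
Tmpo: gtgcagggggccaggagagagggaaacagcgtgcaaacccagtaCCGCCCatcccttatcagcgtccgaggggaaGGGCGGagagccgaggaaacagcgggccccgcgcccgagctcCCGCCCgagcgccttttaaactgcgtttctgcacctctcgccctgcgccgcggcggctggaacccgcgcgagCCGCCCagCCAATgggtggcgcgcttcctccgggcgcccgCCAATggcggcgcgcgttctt
The Tmpo window held 4 matches to GGGCGG and 2 to CCAAT at 70.8% G and C, and the Lmna window held 1 match to GGGCGG and 0 to CCAAT at 56.4%. RefSeq also gave a second start window for each, and the contrast is for the pair shown. The second Tmpo window held 0 matches to GGGCGG and 0 to CCAAT at 46% G and C, and the second Lmna window 0 and 1 at 52.8%. Neither printed window held a MEF2-type site of muscle genes, searched as CTA and TAG with any 4 bases between them. RefSeq listed 12 start windows for 8 of the members. GGGCGG was in 9 of the 12 and CCAAT in 6, against 32.7% and 33.8% of 32851 windows over all genes, and the MEF2-type site was in 1, a second Lmnb2 start, against 3.20%.

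Tmpo, Lemd3 and Lmna carried the most UMIs in myonuclei. In the pooled myonuclei of Ctrl the order was Tmpo (lamina-associated polypeptide 2) at 63.7 CPM from 502 UMIs, Lemd3 (MAN1) at 50.4 from 397, Lmna at 32.5 from 256, Ankle2 at 27.5 from 217 and Lmnb1 at 23.0 from 181. Lemd2 followed at 16.2, Lbr at 13.2, Lmnb2 at 3.55 and Emd (emerin) at 2.54. In cKO the order opened with Lmna at 63.5 CPM from 430 UMIs, then Lemd3 at 50.6 and Tmpo at 30.4. Several neighbours in the order had overlapping counting intervals, and no order was read between them. In both libraries these were Ankle2 and Lmnb1, Lemd2 and Lbr, and Emd and Lmnb2. In Ctrl they also included Lmna (28.6 to 36.7) and Ankle2 (24.0 to 31.5), and in cKO Tmpo (26.4 to 34.9) and Ankle2 (19.2 to 26.5).

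Banf1 was too low to read in every class. It had 3 UMIs in Ctrl and 4 in cKO over all myonuclei, against 10 UMIs as the fewest for a level, and 2 and 3 UMIs outside the fibres. Emd and Lmnb2 were readable over all myonuclei and in nuclei with Myh4 as main myosin, and in neither library outside the fibres. Members were counted in few nuclei at a time: Tmpo had a UMI in 418 of 2981 Ctrl myonuclei, and the highest count of any member in a single myonucleus was 6, for Lmna in Ctrl. Of the readable members, Lmna had no gene overlapping it on either strand, while Lemd2, Tmpo, Lbr and Ankle2 each overlapped 1 gene on the other strand, which Cell Ranger separates by strand. Lmna lies on chromosome 3 (88480147 to 88509956, GRCm38, minus strand) and Tmpo on chromosome 10 (91147571 to 91181315, minus strand).

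Between the libraries, Lmna was higher and Tmpo lower in cKO myonuclei. Lmna went from 32.5 CPM (28.6 to 36.7) in Ctrl to 63.5 CPM (57.6 to 69.8) in cKO, a log2 ratio of 0.97 (0.74 to 1.20). Tmpo went from 63.7 CPM (58.3 to 69.5) to 30.4 CPM (26.4 to 34.9), a log2 ratio of −1.07 (−1.31 to −0.83). Neither pair of intervals overlapped. Lemd2 (LEM2, which helps reseal the envelope after mitosis) was at 16.2 CPM in Ctrl and 10.6 in cKO, a log2 ratio of −0.61 (−1.05 to −0.18). Emd was at 2.54 CPM from 20 UMIs and 4.87 from 33, a log2 ratio of 0.94 whose interval of 0.10 to 1.82 was the widest of these.

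The other 5 readable members differed by less than 1.5-fold. Lemd3, an inhibitor of SMAD signalling at the inner membrane, was at 50.4 and 50.6 CPM, a log2 ratio of 0.01 (−0.21 to 0.22). Lmnb1 had a log2 ratio of −0.32 (−0.66 to 0.02) and Ankle2, which is needed for envelope reassembly through Banf1, one of −0.29 (−0.59 to 0.02). Lbr gave −0.13 (−0.56 to 0.31) and Lmnb2 −0.13 (−1.005 to 0.73), an interval that spans both a lower or a higher level. Under the call used here, at least 1.5-fold with at least 50 UMIs over both libraries, 2 of the 9 members with enough UMIs were higher (7.38% of 9284 genes were) and 2 were lower (10.6% of genes were). The median log2 ratio over the 9 members was −0.13, against −0.08 over the 9284 genes.

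**Figure D1:**
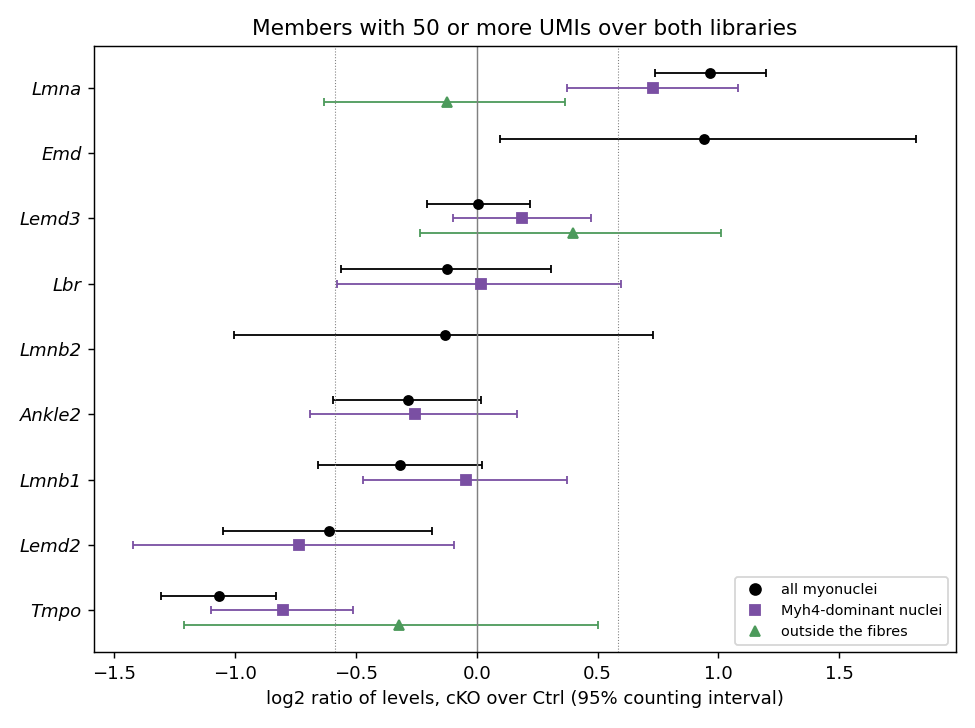
Log2 ratio of the level in cKO over that in Ctrl for each member with at least 50 UMIs over both libraries (x axis; y axis, gene) in all myonuclei, in nuclei with Myh4 as main myosin and outside the fibres. Bars are 95% counting intervals and dotted lines mark 1.5-fold. Lmna (0.97) and Tmpo (−1.07) stand at opposite ends in myonuclei.

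The relation of 2 members counted in the same nuclei was also taken, with the pairs chosen after the ratios above were seen. In Ctrl myonuclei there were 0.510 Lmna UMIs per Tmpo UMI and in cKO 2.09, a ratio 4.09-fold higher (3.25 to 5.15). Lmna per Lmnb1 went from 1.41 to 3.44 UMIs, 2.43-fold (1.83 to 3.24), and Lmna per Lemd3 from 0.645 to 1.25, 1.94-fold (1.56 to 2.42). By main myosin, Lmna per Tmpo was 2.88-fold higher (2.09 to 3.99) in Myh4 nuclei and 1.04-fold (0.281 to 3.54) in Myh2 nuclei, the latter from 6 and 10 Tmpo UMIs. In nuclei outside the fibres, which the Cre driver is not known to target, Lmna per Tmpo was 2.51 in Ctrl and 2.88 in cKO, 1.15-fold with an interval of 0.581 to 2.34.

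Shares of nuclei at 1 depth gave the same directions. With each nucleus thinned to 500 UMIs, which left out 0 nuclei, Lmna had a UMI in 47 of 2981 Ctrl myonuclei (1.58%, exact binomial interval 1.16 to 2.09) and in 107 of 3299 cKO myonuclei (3.24%, 2.67 to 3.91). Tmpo had a UMI in 3.12% (2.53 to 3.81) and 1.39% (1.02 to 1.86). Unthinned, the shares were 7.21% and 11.4% for Lmna and 14.0% and 5.67% for Tmpo, at median depths of 2140 and 1647 UMIs. Outside the fibres the thinned Lmna share was 6.06% in Ctrl and 4.05% in cKO, at unthinned medians of 1321 and 1153.5 UMIs.

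Lmna levels were higher outside the fibres than in them, and the markers of those cells were also counted in the myonuclei. Of 9 marker lists of cells other than fibres, 7 had lower sums in cKO myonuclei and 2 had higher ones. The 11 fibro-adipogenic progenitor (FAP) markers summed to 128 CPM in Ctrl myonuclei and to 60.4 in those of cKO, with all 11 detected in both, and the 10 endothelial markers to 39.2 and 25.2 CPM, with 0 and 1 of them at 0. The satellite cell list, with 1 of 7 markers at 0 in each library, summed to 9.01 and 12.1 CPM, and the adipocyte list, with 1 and 2 of 7 at 0, to 1477 and 1646 CPM. In Myh4 nuclei these sums were 7.39 and 15.5 CPM for the satellite cell list and 1512 and 1979 CPM for the adipocyte list, and 2 further lists were higher there in cKO, smooth muscle and pericyte (305 and 345 CPM) and macrophage (13.3 and 13.8 CPM). The part of these lists in the Lmna level was not tested. The 4 markers of the remodeling list (Trp63, Fbxo32, Trim63 and Ampd3) summed to 3323 CPM in Ctrl myonuclei and to 1823 in those of cKO, which is the direction of Tmpo, and their part in its level was not tested.

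Fibre class was the second axis along which these genes varied, with Lmna lowest and Tmpo highest in the nuclei of the fast Myh4 class in each library. Fast glycolytic type IIb fibres express Myh4, IIx fibres Myh1, oxidative IIa fibres Myh2 and slow type I fibres Myh7. The nuclei with Myh4 as main myosin numbered 1912 in Ctrl and 1433 in cKO, those with Myh1 302 and 382, those with Myh2 165 and 324, and those with Myh7 19 and 276. The 19 Ctrl nuclei with Myh7 held 2 Lmna UMIs and no member reached 10 UMIs there, so this class was read in cKO alone.

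In Ctrl, Lmna was at 26.2 CPM (22.1 to 30.9) in Myh4 nuclei, 40.0 (27.4 to 56.5) in Myh1 nuclei and 73.5 (49.6 to 105) in Myh2 nuclei. In cKO it was at 43.4 CPM (36.3 to 51.6) in Myh4, 69.5 (53.3 to 89.1) in Myh1, 75.7 (56.6 to 99.3) in Myh2 and 85.3 (63.7 to 112) in Myh7 nuclei. Among these main-myosin classes, Lmna was thus lowest in Myh4 nuclei in both libraries. Myh2 nuclei exceeded Myh4 nuclei by a log2 ratio of 1.49 (0.87 to 2.06) in Ctrl and 0.80 (0.31 to 1.28) in cKO, and Myh7 nuclei exceeded Myh4 nuclei in cKO by 0.97 (0.48 to 1.45). Between Myh7 and Myh2 nuclei of cKO the log2 ratio was 0.17 (−0.41 to 0.75), and between Myh2 and Myh1 nuclei of cKO it was 0.12 (−0.44 to 0.68), so no order was read among these 3.

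Tmpo was highest in Myh4 nuclei among the classes read. In Ctrl it was at 75.2 CPM (68.0 to 82.8) in Myh4 and 27.5 (17.2 to 41.7) in Myh1 nuclei, and in Myh2 nuclei it had 6 UMIs, under the 10 needed. In cKO it was at 43.1 CPM (35.9 to 51.2) in Myh4, 15.7 (8.58 to 26.3) in Myh1, 14.6 (6.99 to 26.8) in Myh2 and 18.04 (9.004 to 32.3) in Myh7 nuclei. In both libraries Myh1 nuclei stood below Myh4 nuclei, with log2 ratios of −1.45 (−2.14 to −0.83) in Ctrl and −1.46 (−2.37 to −0.66) in cKO. With a cluster for each myosin in place of the myosin rule the ratios were −0.78 in Ctrl and −2.42 in cKO. Lmnb1 leaned the same way as Tmpo, with 25.7 CPM in Myh4 and 12.5 in Myh1 nuclei of Ctrl, a log2 ratio of −1.04 (−2.13 to −0.11), and 24.9 CPM in Myh4 nuclei of cKO against 5 to 7 UMIs in each of the other 3 myosin classes.

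Lemd2 was at 34.3 CPM in Myh2 and 15.1 in Myh4 nuclei of Ctrl, a log2 ratio of 1.18 (0.25 to 2.01), whereas clusters in place of the myosin rule gave 0.25, below 1.5-fold. Lemd3 and Ankle2 lay closer together across classes. Lemd3 was between 49.3 CPM (Myh4) and 63.7 CPM (Myh2) in the readable myosin classes of Ctrl and between 36.1 CPM (Myh7) and 56.2 CPM (Myh4) in cKO, and every interval against Myh4 nuclei included 0. For Lemd3 in Ctrl the log2 ratio of Myh2 over Myh4 nuclei was 0.37, and −0.32 with clusters in place of the myosin rule. Ankle2 was between 22.5 and 27.3 CPM in Ctrl and between 22.9 and 28.0 CPM in cKO, again with 0 inside each interval.

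Between Myh2 and Myh4 nuclei of Ctrl, 2 of 7 members were at least 1.5-fold higher (19.9% of genes were) and 2 were at least 1.5-fold lower (26.2% of genes were). In cKO, 1 of 5 was higher (14.1% of genes) and 2 lower (23.1% of genes). Between Myh1 and Myh4 nuclei, 1 of 7 was higher in Ctrl (11.7%) and 3 lower (17.5%), and 1 of 5 was higher in cKO (9.38%) and 2 lower (17.1%). Lmna was the higher member in each of these 4 comparisons, with Lemd2 beside it in the first, and Tmpo and Lmnb1 were among the lower ones in each. In the Myh2 nuclei of Ctrl those lower values rest on 6 Tmpo UMIs and 1 Lmnb1 UMI. The third lower member in the Myh1 nuclei of Ctrl was Lbr, with 7 UMIs there and an interval of −1.97 to 0.51. For Lmna, the log2 ratio of Myh1 over Myh4 nuclei was 0.61 (0.009 to 1.17) in Ctrl and 0.68 (0.22 to 1.13) in cKO. With clusters in place of the myosin rule these Lmna ratios were 0.44 and 0.45, below 1.5-fold in both libraries.

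**Figure D2:**
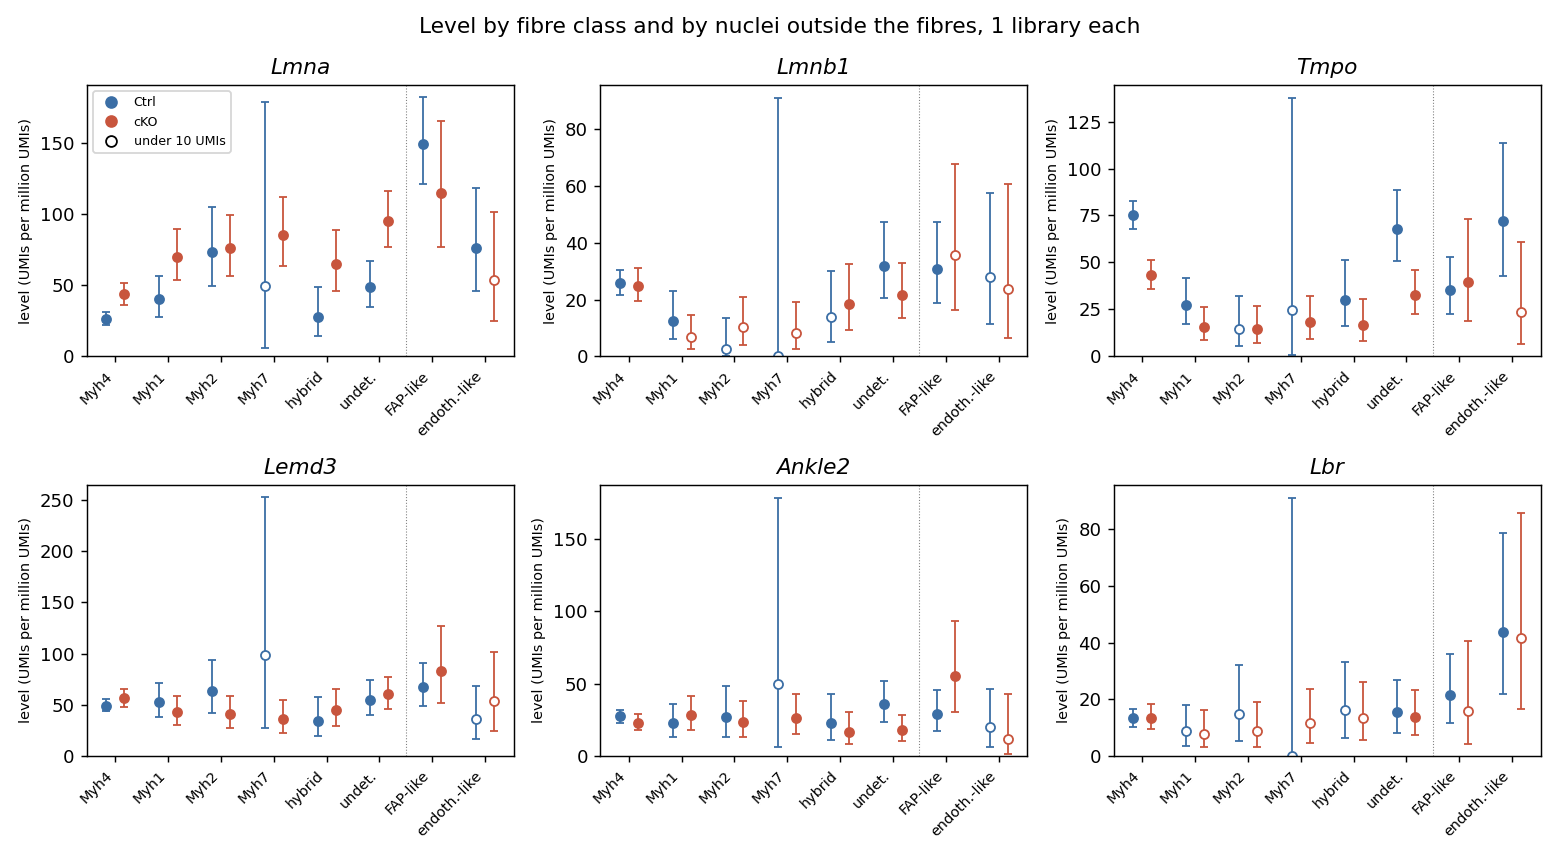
Level in UMIs per 1000000 UMIs (y axis) of 6 members by main myosin of the myonucleus, in hybrid and undetermined myonuclei, and in 2 classes outside the fibres (x axis), in Ctrl and cKO. Bars are 95% counting intervals and open circles have under 10 UMIs. Lmna is lowest and Tmpo highest in Myh4 nuclei among the myosin classes read in both libraries.

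The difference between the libraries was present within the largest class. In Myh4 nuclei Lmna went from 26.2 to 43.4 CPM, a log2 ratio of 0.73 (0.37 to 1.08), and Tmpo from 75.2 to 43.1 CPM, a log2 ratio of −0.80 (−1.10 to −0.51). Lemd2 went from 15.1 to 9.09 CPM (−0.74, −1.42 to −0.09), and the cluster taken for Myh4 in place of the myosin rule, cluster 0, gave −1.42 from 31 and 6 UMIs, under the 50 needed. Clusters 1 and 2, with Myh4 levels near those of cluster 0, gave Lemd2 ratios of 0.05 (−1.48 to 1.43) and −0.21 (−1.42 to 0.92), also on under 50 UMIs each, so no order was read among them. Of 7 members with enough UMIs in that class, 1 was higher (5.99% of 7749 genes) and 2 were lower (8.96% of genes). Lmnb1 was at 25.7 and 24.9 CPM there, Lbr at 13.3 and 13.5, and Lemd3 at 49.3 and 56.2 (log2 ratio 0.19, −0.10 to 0.47, and −0.20, 0.58 and 0.51 in clusters 0, 1 and 2). Plpp7 was at 54.7 and 60.2 CPM in these nuclei, a log2 ratio of 0.14 (−0.14 to 0.41). The 11 FAP markers summed to 88.1 and 54.2 CPM in these nuclei. The 10 type I fibre markers summed to 92.9 and 375 CPM and the 4 of the remodeling list to 3550 and 1723 CPM, and their part in the Lmna and Tmpo levels was not tested.

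In Myh1 nuclei Lmna had a log2 ratio of 0.80 (0.16 to 1.46), with 1 of 2 members higher (7.01% of genes) and 0 lower (10.1% of genes), and Tmpo went from 22 UMIs to 14, too few for a ratio. Cluster 3, with Myh1 among its leading genes, held 46 Tmpo UMIs in the Ctrl library but 8 in that of cKO (41.4 and 8.82 CPM), a log2 ratio of −2.23 (−3.53 to −1.13). In undetermined myonuclei, with under 3 myosin UMIs, Lmna had 0.96 (0.41 to 1.55) and Tmpo −1.06 (−1.73 to −0.40), 1 of 3 members in each direction (10.9% of genes higher and 18.1% lower). Hybrid myonuclei gave 1.22 (0.26 to 2.29) for Lmna, the sole member with enough UMIs (7.69% of genes higher and 14.3% lower). In Myh2 nuclei Lmna was at 73.5 and 75.7 CPM, a log2 ratio of 0.04 whose interval of −0.63 to 0.74 includes the 0.73 of Myh4 nuclei, and the difference between these classes was not tested. The cluster led by Myh2, taken in place of the myosin rule, gave 0.80. In Myh2 nuclei 0 of 2 members were higher (5.96% of genes) and Lemd3 was lower at 40.8 against 63.7 CPM (14.2% of genes lower), with an interval of −1.47 to 0.18 on the log2 scale.

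The cKO library held more nuclei of the classes with high Lmna and low Tmpo: Myh4 nuclei made up 54.2% of the Ctrl nuclei used and 39.9% of cKO, and Myh7 nuclei 0.539% and 7.68%. With the cKO level of each of the 6 myosin classes weighted by the UMIs of that class in Ctrl, Lmna in cKO was 54.2 ± 3.04 CPM (counting SE), between the 32.5 of Ctrl and the 63.5 of cKO as measured. Tmpo on the same weights was 36.2 ± 2.74 CPM, between 63.7 and 30.4. With the 10 myonuclear clusters in place of the 6 classes the values were 52.2 ± 3.51 and 37.1 ± 3.02 CPM. Lmnb1 at the Ctrl mix was 21.5 ± 2.09 CPM, against 23.0 in Ctrl and 18.5 in cKO. Emd was at 3.95 ± 0.83 CPM on the 6 classes and 4.78 ± 1.29 on the 10 clusters, against 2.54 in Ctrl and 4.87 in cKO.

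The clusters added nuclei that the myosin rule does not single out. Cluster 6, whose leading genes opened with Gm12681, Rrad, Ankrd1, Ggt5 and Atf3, was left unnamed and held 143 Ctrl and 345 cKO nuclei. Its Lmna level was 75.3 CPM (51.2 to 107) in Ctrl and 74.8 (58.8 to 93.7) in cKO, above Myh4 nuclei by log2 ratios of 1.52 (0.91 to 2.09) and 0.78 (0.35 to 1.21). Its Tmpo level was 31.6 CPM in Ctrl and 16.95 in cKO, below Myh4 nuclei by −1.25 (−2.17 to −0.46) and −1.35 (−2.17 to −0.61). This cluster therefore had high Lmna and low Tmpo in both libraries, without a library difference in Lmna beyond counting error. Among 7 members in Ctrl, 2 were at least 1.5-fold higher than in Myh4 nuclei (12.6% of genes) and 3 lower (22.6%), and among 5 in cKO 1 was higher (8.91%) and 2 lower (31.2%). Of the 3, Lbr rests on 3 UMIs in the cluster, with an interval of −3.18 to 0.74.

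Cluster 4, the type I-like cluster with 9 of 10 type I markers detected, came from cKO for 91.8% of its nuclei. It had Lmna at 92.5 CPM (76.9 to 110) in cKO and 7 Lmna UMIs in Ctrl. Against cluster 5, led by Myh2, at 95.2 CPM in cKO, the log2 ratio was −0.04 (−0.49 to 0.42). Cluster 10, unnamed, held 160 Ctrl and 17 cKO nuclei and all 4 genes of the remodeling list were among its markers. Its Tmpo level in Ctrl was 69.8 CPM (45.6 to 102), with an interval that includes the 75.2 of Myh4 nuclei, and in cKO it had 2 Tmpo UMIs. It was the myonuclear cluster with the highest readable Lmnb1 level, 61.7 CPM (39.1 to 92.6) in Ctrl from 23 UMIs, above Myh4 nuclei by a log2 ratio of 1.27 (0.56 to 1.91). Of 7 members in that cluster, 2 were higher than in Myh4 nuclei (18.5% of genes) and 0 lower (16.4% of genes). Beside Lmnb1 the higher one was Lemd2, from 11 UMIs, with a log2 ratio of 0.96 and an interval of −0.09 to 1.88. The myotendinous junction-like cluster had Lmna at 50.4 CPM in Ctrl from 18 UMIs and 7 UMIs in cKO, and the neuromuscular junction-like cluster had 5 and 4 Lmna UMIs, too few to read.

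**Figure D3:**
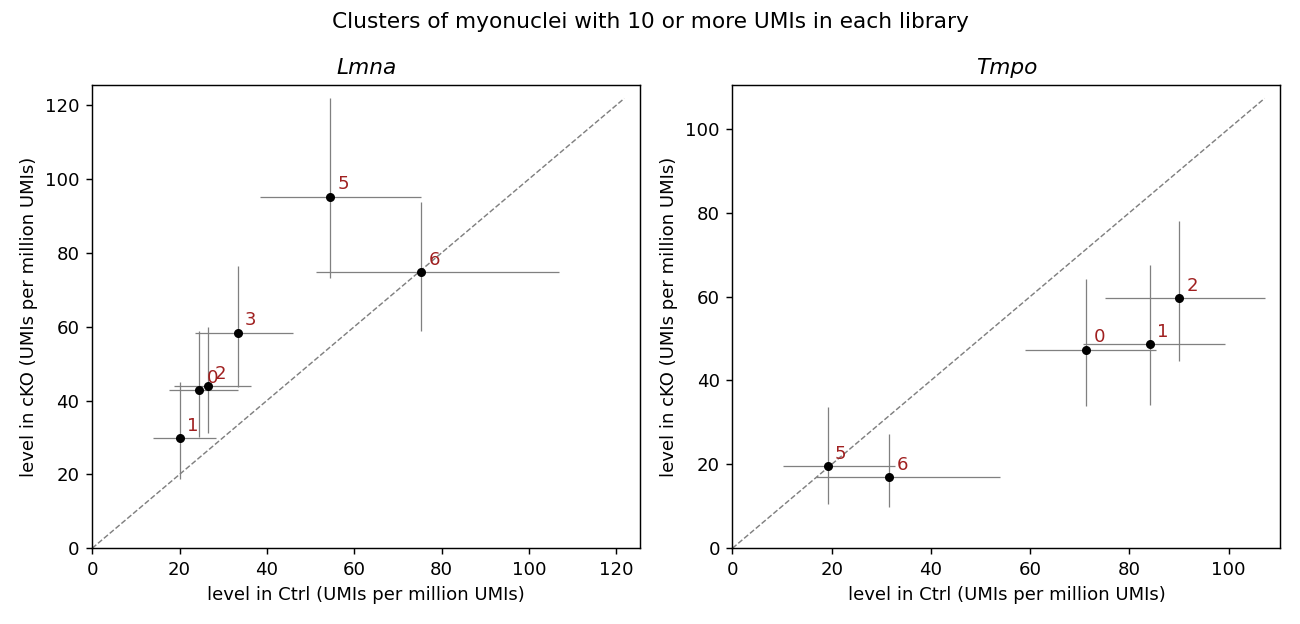
Level in cKO (y axis) against level in Ctrl (x axis), in UMIs per 1000000 UMIs, of Lmna (left) and Tmpo (right) in each numbered cluster of myonuclei with at least 10 UMIs in each library. Bars are 95% counting intervals and the dashed line marks equal levels. Lmna lies above the line in 5 of the 6 clusters shown and on it in cluster 6, and Tmpo lies below the line in 4 of the 5 shown and on it in cluster 5.

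Nuclei outside the fibres came mainly from FAPs, the connective tissue progenitors of muscle, and from endothelium. There were 329 and 149 FAP-like and 139 and 111 endothelial-like nuclei in Ctrl and cKO, and macrophage-like, smooth muscle and pericyte-like and satellite cell-like nuclei numbered 10 to 29 per library. The names were rebuilt from marker lists, and all 11 FAP and all 10 endothelial markers were detected in their clusters. Fibre RNA was present in these nuclei too, since Ttn, the sarcomere gene titin, was at 45.2% and 48.0% of its myonuclear level outside the fibres, 33.8% and 34.0% in FAP-like nuclei and 61.0% and 70.4% in endothelial-like nuclei. A member's level outside the fibres is therefore a level of these nuclei together with that RNA.

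Lmna was higher outside the fibres than in them in both libraries. In Ctrl it was at 113 CPM (94.0 to 135) outside and 32.5 in myonuclei, a log2 ratio of 1.80 (1.48 to 2.11), and in cKO at 104 CPM (76.9 to 137) and 63.5, a log2 ratio of 0.71 (0.25 to 1.14). The levels outside had overlapping intervals between the libraries, and the myonuclear levels did not. FAP-like nuclei had 149 CPM (121 to 182) in Ctrl and 115 (77.0 to 165) in cKO. Endothelial-like nuclei of Ctrl had 75.8 CPM (45.6 to 118), and in cKO they had 9 Lmna UMIs. Macrophage-like nuclei held 0 Lmna UMIs in 29 Ctrl nuclei, which allows up to 45.2 CPM, and 9 UMIs in 16 cKO nuclei.

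Lbr was the other member at least 1.5-fold higher outside in both libraries, at 25.7 against 13.2 CPM in Ctrl (log2 ratio 0.96, 0.31 to 1.58) and 29.7 against 12.1 in cKO (1.29, 0.36 to 2.12). Its highest readable level was in endothelial-like nuclei, 43.9 CPM from 11 UMIs in Ctrl, a log2 ratio over myonuclei of 1.73 (0.69 to 2.63), with 7 UMIs in cKO. Tmpo was lower outside than in myonuclei in Ctrl, at 45.04 against 63.7 CPM (−0.50, −0.95 to −0.08), and at 36.1 against 30.4 in cKO (0.25, −0.56 to 0.96). The classes outside differed in Ctrl. FAP-like nuclei had Tmpo at 35.3 CPM from 23 UMIs, a log2 ratio over myonuclei of −0.85 (−1.52 to −0.25). Endothelial-like nuclei had 71.8 CPM from 18 UMIs, a log2 ratio of 0.17 (−0.59 to 0.85). Lmnb1 was at 26.7 CPM outside in Ctrl and 27.6 in cKO, with 0 inside both intervals of its ratio to myonuclei. Lemd3 and Ankle2 were near their myonuclear levels in Ctrl (0.20, −0.21 to 0.59, and −0.10, −0.72 to 0.47) and above them in cKO (0.59, 0.05 to 1.09, and 0.83, 0.06 to 1.53).

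In Ctrl, 2 of 7 members were at least 1.5-fold higher outside, where 37% of 8685 genes were, and in cKO 5 of 7 were, where 33.5% of 7750 genes were. Lemd2, among those 5, rests on 9 UMIs outside the fibres, with an interval of −0.34 to 1.85 on the log2 scale. In both libraries, 0 of 7 were at least 1.5-fold lower (14.8% and 16.2% of genes were). The median over all genes stood at 0.31 and 0.26 log2 units outside over inside, so the ratios above are to be read against those shifts. The Ctrl ratios of Lemd3, Lmnb1 (0.21), Ankle2 and Tmpo are below the shift, and so is the cKO ratio of Tmpo (0.245 against 0.259).

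**Figure D4:**
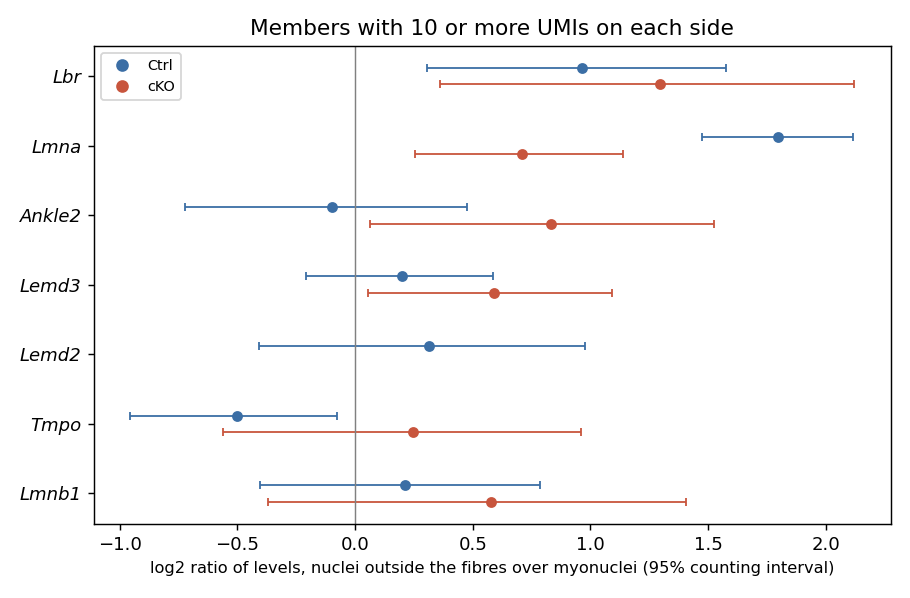
Log2 ratio of the level in nuclei outside the fibres over that in myonuclei of the same library (x axis) for members with at least 10 UMIs on each side (y axis), in Ctrl and cKO. Bars are 95% counting intervals. Lmna moves from 1.80 in Ctrl to 0.71 in cKO, and Lbr is above 0 in both.

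Between the libraries, the nuclei outside the fibres showed 0 of 3 members past 1.5-fold (6.12% of 4775 genes were higher and 13.5% lower). Lmna had a log2 ratio of −0.12 (−0.63 to 0.37), Lemd3 one of 0.40 (−0.23 to 1.01) and Tmpo one of −0.32 (−1.21 to 0.50). For Tmpo, with 49 and 17 UMIs, the interval included both 0 and the −1.07 of the myonuclei, whereas the Lmna interval lay below the 0.97 of the myonuclei. In FAP-like nuclei Lmna gave −0.37 (−1.03 to 0.24) and Lemd3 0.30 (−0.52 to 1.08), with 0 of 2 members past 1.5-fold (7.72% of genes higher and 12.5% lower).

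The genes that process lamins or bind the lamina were counted in the same myonuclei, in which 7.38% of all genes were at least 1.5-fold higher in cKO and 10.6% lower. Of the 5 lamin-processing genes, 3 had enough UMIs and 0 were past 1.5-fold. Fntb, a farnesyltransferase subunit, was at 30.2 and 33.7 CPM, and Zmpste24, the protease that matures prelamin A, at 19.5 and 19.6 CPM. Of 11 genes of the bridge to the cytoskeleton and its envelope partners, 8 had enough UMIs, 0 were higher and 2 were lower. Those were Syne2 (nesprin-2), 15.1 and 10.0 CPM with a log2 ratio of −0.59 (−1.04 to −0.15), and Tmem43, whose 32 and 18 UMIs gave an interval of −1.53 to 0.26. Below 1.5-fold, Tmem201 gave −0.53 (−0.97 to −0.09), and the SUN-domain genes Sun1 and Sun2, named after their values were seen, gave 0.45 (0.23 to 0.67) and −0.45 (−0.66 to −0.24). The 2 most counted genes, Tor1aip1 and Syne1 (nesprin-1), gave 0.02 (−0.11 to 0.14) and −0.25 (−0.39 to −0.10).

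All 8 chromatin partners and BAF kinases had enough UMIs, and 0 were higher and 1 lower. Hdac3, the deacetylase that Tmpo and Emd bind, was the lower one, at 37.1 and 24.2 CPM (−0.61, −0.90 to −0.33). Rb1 and Cbx5 (HP1α), the most counted, gave 0.27 (0.11 to 0.44) and 0.08 (−0.13 to 0.29). The list medians were 0.01 for processing, −0.35 for the bridge and −0.13 for chromatin partners, beside −0.08 over all genes. Ankle1 and Lemd1, the other LEM-domain genes, were below 50 UMIs, and the 8 proliferation genes summed to 9 UMIs in Ctrl and 19 in cKO myonuclei.

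Across 15 groups of nuclei (class by library, each with at least 100000 UMIs), the genes with the pattern most like Lmna among 6315 genes were Nt5c2, Copz2 and P4hb, with Pearson's r of 0.92, 0.90 and 0.89 over log2(CPM + 1). The genes closest to Tmpo were Elp4 (0.94), Prkce (0.91) and Jak2 (0.90), and those closest to Lbr were Prkch, Ptprm and Fli1 (0.92, 0.91 and 0.91). Among the members, Lmnb1 and Tmpo were most alike (r = 0.76) and Lbr and Ankle2 least (r = −0.33), with −0.27 for Lmna and Tmpo. The groups share libraries and depth, so these values are descriptions.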

How the data were processed

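Nuclei of GP muscle were profiled by droplet snRNA-seq in 1 Ctrl and 1 cKO library, each from 3 pooled muscles (from how many animals is in doubt). Per the labels and the study's methods, the authors made the deposited counts (raw UMI counts per gene and barcode, not normalized) with Cell Ranger 3.1.0 at default parameters on mm10 (GRCm38). Whether introns were counted is not given in the sources used here, and the kit version differs between the labels and the methods. Barcodes with under 100 genes, under 500 UMIs or over 10% mitochondrial UMIs were removed. Scrublet (scanpy 1.11.5) called 0 doublets, so the 8% of barcodes with the highest scores were removed in each library.

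Libraries were integrated with Seurat 5.3.0 (SCTransform 0.4.2, 3000 features of which 2 were members, 25 components) and clustered at resolution 0.6, taken after the clusters were seen. A cluster was placed outside the fibres where its best marker list, with at least 3 markers detected, was of another cell type. Of nuclei with 3 or more UMIs of Myh7, Myh2, Myh1 and Myh4, those with 60% or more from 1 gene were classed by it, the others were hybrid, and the rest were undetermined.

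Levels were summed UMIs per 1000000 with exact Poisson intervals, ratios had exact conditional intervals and shares Clopper-Pearson intervals (scipy 1.17.1). These cover counting error only, at 3526 and 3595 nuclei with medians of 2039.5 and 1612 UMIs. A level needed 10 UMIs and a ratio 50 over both sides. The limit for 0 UMIs was 3 UMIs. The text names all 10 members, every gene past 1.5-fold in the partner lists with at least 50 UMIs, and the most counted genes of each list, with Sun1, Sun2 and Tmem201 named after their values were seen. The ratio code was tested on simulated counts. The members and lists were chosen with earlier results of these data known. Coding ends came from GENCODE M21 (GRCm38) and start windows from RefSeq (GRCm38.p6). The alternatives are given in the closing section, and with 1 library a group no replicate could be left out.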

Additional observations from a re-analysis of the deposited data

Results flagged for a closer look

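The log2 ratio of cKO over Ctrl of Lmna was 0.97 in myonuclei and −0.12 (−0.63 to 0.37) in nuclei outside the fibres, a difference of 1.09 log2 units between values of opposite sign. The interval outside includes 0, and over 7 alternative settings that value lay between −0.17 and 0.16, so no direction is read from it. With 1 library in each group the difference was not tested. The outside value rests on 123 and 49 UMIs, and Ttn was at 45.2% and 48.0% of its myonuclear level in those nuclei.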

How the results depend on the processing

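Of 523 values under 12 alternative settings for 77 results, 512 stayed inside the counting interval of the main value, 11 lay outside it and 0 changed the direction of a ratio whose interval excluded 0. Clusters in place of the main myosin gave a Lmna ratio of cKO over Ctrl of 0.80 where Myh2 leads, and moved Tmpo in the Myh1 class over the Myh4 class to −0.78 in Ctrl and −2.42 in cKO. They also gave −1.42 for Lemd2 and −0.20 for Lemd3 between the libraries in the Myh4 class, and, for the Myh2 over the Myh4 class in Ctrl, −0.32 for Lemd3 and −0.79 for Lmnb1. The difference in the share of myonuclei with a UMI, cKO minus Ctrl, was 1.67 percentage points for Lmna and −1.73 for Tmpo at 500 UMIs. It was 3.17 and −2.77 at 1000 UMIs, and 4.19 and −8.35 without thinning, as a share rises with depth by construction. Over the 7 settings that apply, the Lmna ratio in all myonuclei lay between 0.89 and 1.09 and the Tmpo ratio between −1.09 and −0.97. Resolution 0.3, the class mix of Ctrl and the ratios of one member to another were added after seeing the data.

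No paired analysis was possible because each group is 1 library. With 1 library a group, nothing separates the deletion from the library. The deposited table holds 3 muscles a group as 1 pool, Ctrl has 19 nuclei with Myh7 as main myosin, and members under 50 UMIs, Banf1 in every class, allow no comparison.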
